A study of Mus musculus with 45 samples.

Results

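The class I antigen presentation and interferon response genes are a set of 44 genes, chosen by name, out of the 54838 genes counted in 15 mouse PyMT+ mammary tumour cell lines. PyMT+ lines carry the polyomavirus middle T antigen, which the MMTV promoter drives in the mammary epithelium of the source mice. The mice were female and of FVB/N background. By their names the lines go back to the primary mammary tumour lines YEJG and YEJH, called parental here. The labels give 6 derived lines as fat pad tumour, 1 of them from YEJG (YEJG-FP) and 5 from YEJH (YEJH-FP1 to YEJH-FP5), and 7 as lung, 2 from YEJG (YEJG-M1 and YEJG-M2) and 5 from YEJH (YEJH-M1 to YEJH-M5). The study describes the first as grown from primary tumours after transplantation of PyMT+ lines to the fat pad, and the second as isogenic cells from lung micrometastases after the tumours were resected. Of the lung lines, YEJH-M3 is labelled lung metastases and the others whole lung. All were cultures lysed near confluence, and no label names a treatment. Each parental line and the YEJG fat-pad line is a group of 1 line, and the 3 libraries of a line are technical repeats, so the line was the unit of every comparison below unless stated.

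Class I molecules show fragments of a cell's own proteins to CD8 T cells. The immunoproteasome cuts the proteins, a transporter carries the peptides into the endoplasmic reticulum, a loading complex fits them into a heavy chain paired with beta-2 microglobulin, and the loaded molecule moves to the cell surface. Interferons raise this whole chain of genes. Type II interferon acts largely through GAS elements and the factor IRF1, whereas type I interferon and cytosolic RNA or DNA sensing act largely through interferon-stimulated response elements (ISRE), which ISGF3 (STAT2 and IRF9 among its subunits) and other IRF factors bind. Tumour cells that lose these genes can be seen less well by T cells.

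Between 9723860 and 16943900 reads per library fell on genes. The sum of 8 mammary epithelial markers lay at 3724 to 10673 CPM (counts scaled to library size) in every line, while 8 leukocyte markers summed to 1.33 to 3.13 CPM, and Cd3e and Itgam had no read in any line. Epithelial markers were lowest in the 2 YEJG lung lines (3724 and 3738 CPM, against 8325 to 10673 in YEJH lung lines), where 5 fibroblast markers, mostly through Pdgfra, summed to 12.3 and 51.5 CPM (2.27 to 4.99 in YEJH lung lines). Of these markers, Lum had no read in any line. Dcn did not rise, at 0.0939 and 0.111 CPM in the 2 YEJG lung lines against 0.0226 to 0.198 in YEJH lung lines. Because both the marker levels and the genes described here moved in these 2 lines, the values are given together, and the part of one in the other was not tested. In RNA from whole cultures, fewer cells of a type and less RNA per cell cannot be told apart. The library names carry 2 prefixes, called library run A (22 libraries) and run B (23 libraries) here. Each line had libraries in both, in unequal shares that differed between lines. YEJG-M1 repeat 1 has a library name that names a different line, so its title decided its group.

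The promoters of 7 genes are shown as examples. They were picked after the directions of the genes in the lung lines and the letters were seen, so they do not stand for the set. For each, the 150 bases before a RefSeq start (GRCm38.p6) are printed 5′ to 3′ on the gene's strand. Capitals mark matches to GAAANNGAAA, or TTTCNNTTTC, the same ISRE core on the other strand. They also mark TTCNNNGAA, a GAS core, which reads the same on both strands. Where a gene had several start windows, the one with most matches was printed. The other window of Irf1 holds neither core and is not shown. Psmb8 (chr17:34198045-34198194, plus strand) and Irf1 (chr11:53769864-53770013, plus strand) hold a GAS core, Gbp2 (chr3:142620513-142620662, plus strand) an ISRE core, and all 3 genes were higher in YEJG lung than in YEJH lung lines.
Psmb8: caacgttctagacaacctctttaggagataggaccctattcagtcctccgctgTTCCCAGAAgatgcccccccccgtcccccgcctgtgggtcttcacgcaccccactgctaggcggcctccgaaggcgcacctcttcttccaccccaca
Irf1: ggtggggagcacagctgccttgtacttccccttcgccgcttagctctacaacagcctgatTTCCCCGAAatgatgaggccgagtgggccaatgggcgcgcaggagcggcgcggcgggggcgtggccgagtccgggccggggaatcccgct
Gbp2: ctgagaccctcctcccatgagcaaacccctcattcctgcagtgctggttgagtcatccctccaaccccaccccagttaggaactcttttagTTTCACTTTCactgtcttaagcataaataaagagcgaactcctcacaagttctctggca
Isg15 (chr4:156200819-156200968, minus strand), Ifit1 (chr19:34640739-34640888, plus strand), Rsad2 (chr12:26456453-26456602, minus strand) and Oasl1 (chr5:114923090-114923239, plus strand) were all lower in those lines. The first 3 hold ISRE cores and Oasl1 holds neither core in its whole window of 300 bases.
Isg15: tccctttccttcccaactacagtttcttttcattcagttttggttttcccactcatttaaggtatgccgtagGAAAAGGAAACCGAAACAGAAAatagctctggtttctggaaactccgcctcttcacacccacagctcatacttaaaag
Ifit1: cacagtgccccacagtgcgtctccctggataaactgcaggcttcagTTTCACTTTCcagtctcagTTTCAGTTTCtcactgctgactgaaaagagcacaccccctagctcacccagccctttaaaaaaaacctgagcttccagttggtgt
Rsad2: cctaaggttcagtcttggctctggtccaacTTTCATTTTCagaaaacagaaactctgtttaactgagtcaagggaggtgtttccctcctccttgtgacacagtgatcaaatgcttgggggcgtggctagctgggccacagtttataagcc
Oasl1: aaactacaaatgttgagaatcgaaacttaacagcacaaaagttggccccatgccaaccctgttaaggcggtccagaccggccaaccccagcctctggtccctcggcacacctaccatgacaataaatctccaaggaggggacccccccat

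Promoter windows (250 bases before to 50 after a start) were found for 39 of the 44 genes. Nlrc5, Dhx58, Tap2, Usp18 and Parp14 had no entry. An ISRE core was present for 15 of the 39 genes (38.5%, against 3.99% of 27025 genes with a window), and a GAS core for 8 (20.5%, against 9.55%). A gene with several windows was counted if any of them held the core, as for Irf1, Ifit2 and Gbp3. The letters of a GAS and an ISRE match overlapped in 1 gene, Bst2, which encodes tetherin. Among genes lower in YEJG lung than YEJH lung lines, 7 of 12 with a window had an ISRE core and 1 of 12 a GAS core. Among those higher, 4 of 13 had an ISRE core and 6 of 13 a GAS core, as had 4 and 1 of the 13 genes that passed in neither direction. Neither core was found for Psmb9, Psmb10 and Ifngr1, which were higher, or for H2-D1, Oasl1, Oasl2, Trim25 and Samd9l, which were lower. A match of letters is not evidence that a factor binds, and these shares were not tested.

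Scaled to exon length, the class I chains H2-D1, B2m and H2-K1 were the most abundant of the 44 genes. As means over the 15 lines, H2-D1 reached 207 RPKM (CPM per kilobase of exon), B2m 118 and H2-K1 63.2. Tapbp, the loading chaperone tapasin, followed at 30.4 RPKM, and Ifngr1, the ligand-binding chain of the type II interferon receptor, at 13.4. The remaining class I chain, H2-T23, ranked only 25 of the 44, at 0.945 RPKM. At the other end stood Irf7 (0.163 RPKM), Cd274 (0.145), Ifit3 (0.0489) and Ifi44 (0.008902). Ifi44 was too low to be tested in any comparison, and Ifit3 was tested in 6 of the 9. Interferon genes themselves were almost silent, since over all 45 libraries Ifnb1 had 5 reads, Ifne 3, Ifna4 and Ifnl3 1 each, and 6 others, Ifng among them, had 0.

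The parental line YEJG was the low point of the set. Of the 43 genes tested over the 15 lines, 27 (62.8%) were at their lowest in YEJG, against 14.6% of the 17110 genes tested in all. YEJG-M2 held the highest value of 12 of the 43 genes (27.9%, against 10.8% of all genes) and YEJG-M1 of 7 (16.3%, against 17.2%), while YEJG-M1 was also lowest for 8 (18.6%, against 18.3%). YEJG-M2 was lowest for 1 (2.33%, against 9.13%). The shares of YEJG-M1 were near those of all genes. The map of the genes in each line shows which genes these were.

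**Figure D1:**
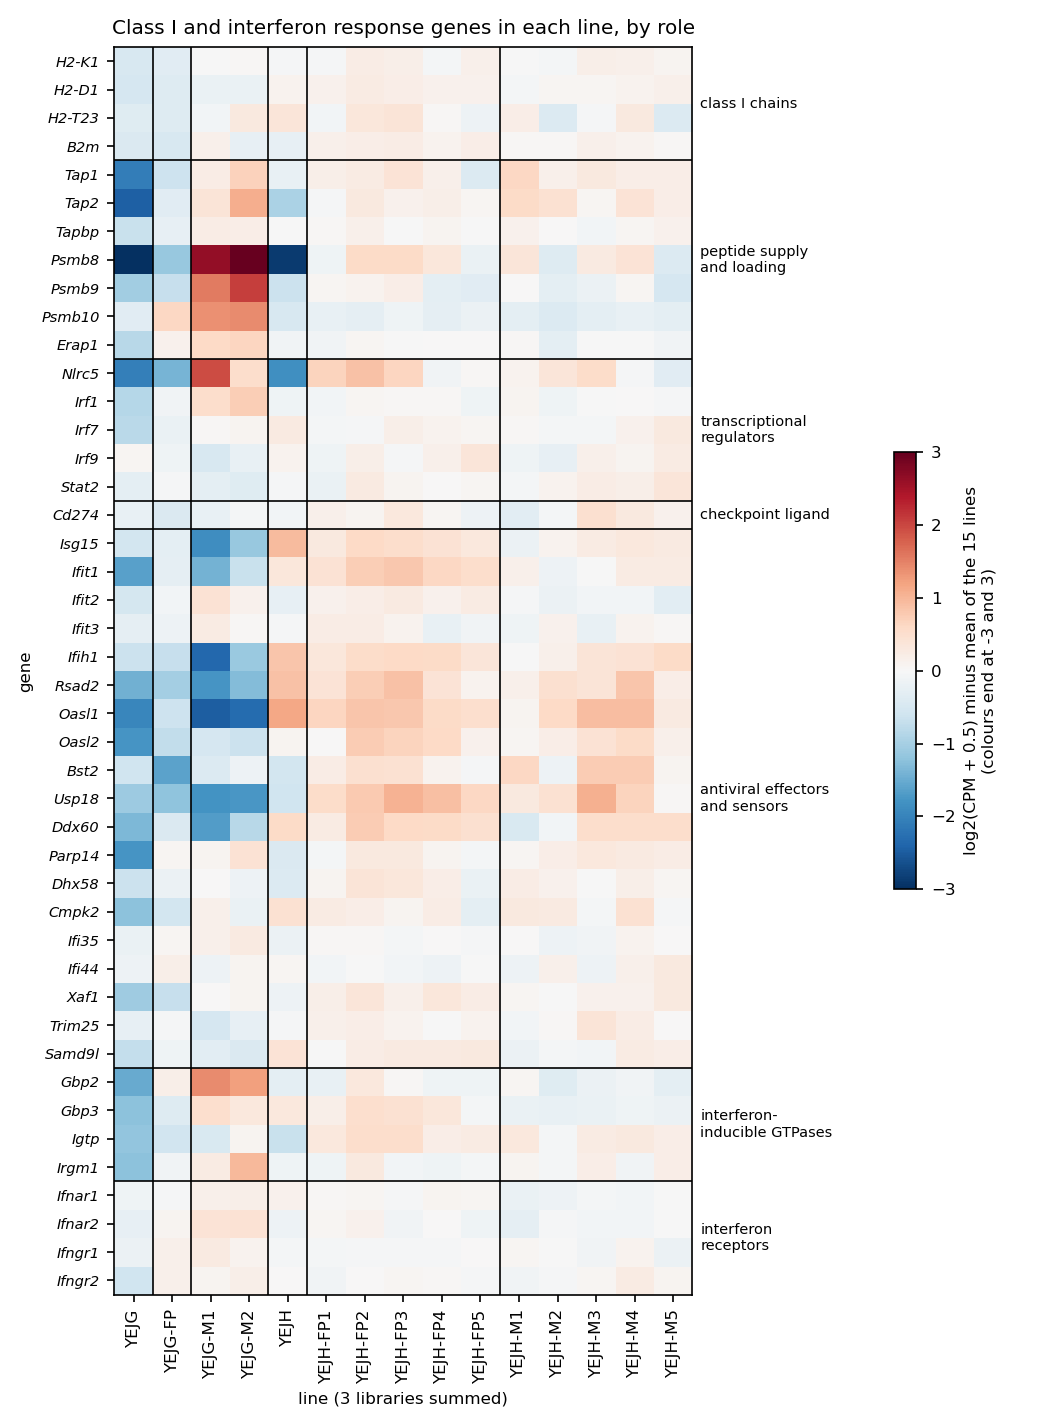
Each row is a gene and each column a line, grouped by parental origin and site and separated by black lines, with colour giving log2(CPM + 0.5) minus the mean of the 15 lines and ending at -3 and 3. Psmb8, Psmb9, Psmb10, Nlrc5 and Gbp2 are red in YEJG-M1 and YEJG-M2, where Oasl1, Usp18, Ifih1 and Rsad2 are blue, and the YEJG parental line is blue in most rows.

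YEJG lung and YEJH lung lines differed in both directions. Tested by quasi-likelihood in edgeR, with p-values adjusted over all genes (Benjamini-Hochberg), 27 of 43 genes tested passed an adjusted p of 0.05, 14 higher and 13 lower in the 2 YEJG lung lines, where 42.8% of all 17110 genes passed (21% higher, 21.8% lower). The median log2 fold change was -0.02 over the 43 genes and -0.001 over all genes. Every log2 fold change below is given with its standard error (SE) after the ± sign, and adjusted p-values come from this test. Each origin is a single parental line, so p-values between origins speak of the spread among lines derived from it, not among tumours. Within run A alone 25 genes passed (11 higher, 14 lower) and within run B alone 26 (15 higher, 11 lower). Of the 27 genes, 16 passed under every alternative in which they were tested and none changed sign. The 14 genes that were higher were 4 that supply and trim peptides, 2 regulators, 3 GTPases, 3 receptor chains, and Ifit2 and Ifi35. The 13 that were lower were 11 antiviral effectors and sensors, Stat2 and the heavy chain H2-D1.

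**Figure D2:**
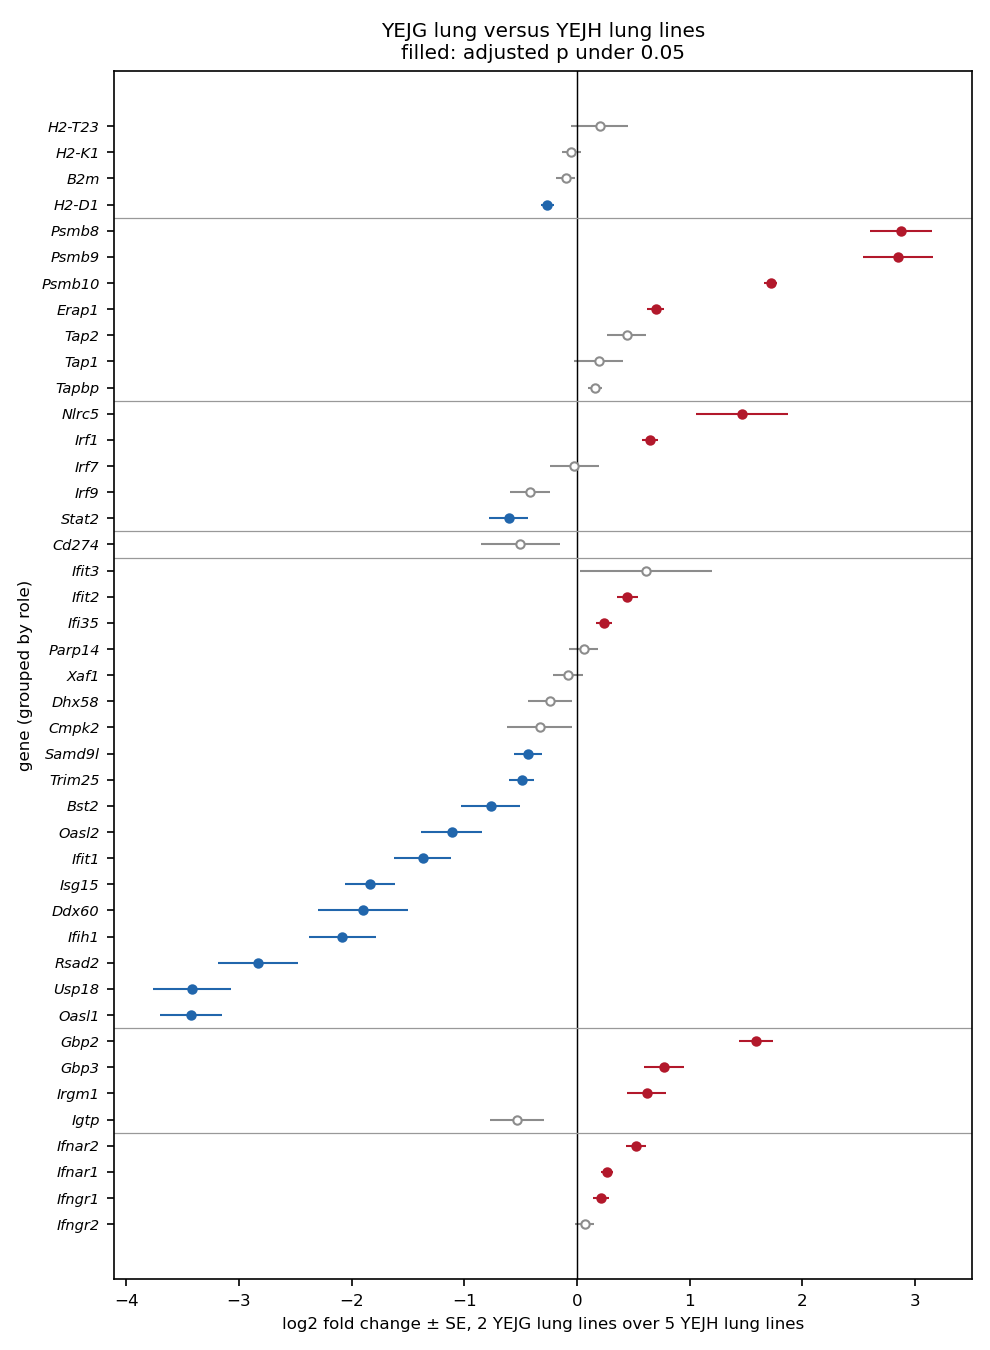
Log2 fold change (horizontal axis, bars ± SE) of the 43 tested genes between 2 YEJG lung and 5 YEJH lung lines, grouped by role, with filled red and blue points for genes that passed higher and lower, and open grey points for the rest. Peptide supply genes and GTPases lie mostly right of 0 and antiviral effectors mostly left, from 2.88 for Psmb8 to -3.43 for Oasl1.

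The class I chains themselves moved little. H2-K1, a classical heavy chain, stood at 143 CPM in the YEJG parental line, 159 in YEJG-FP, 199 in YEJG-M1 and 205 in YEJG-M2. In YEJH lines H2-K1 was 196 CPM in the YEJH parental line, 196, 233, 225, 193 and 223 in YEJH-FP1 to YEJH-FP5 and 199, 191, 224, 221 and 211 in YEJH-M1 to YEJH-M5. The YEJG lung lines fell within the range of the YEJH lung lines, with a log2 fold change of -0.05 ± 0.08 (adjusted p = 0.668). H2-D1, the other classical heavy chain tested, was measured at 432 CPM in the YEJG parental line, 471 in YEJG-FP, 535 in YEJG-M1 and 536 in YEJG-M2. Its YEJH values were 661 CPM in the YEJH parental line, 671, 727, 708, 674 and 668 in YEJH-FP1 to YEJH-FP5 and 586, 638, 643, 664 and 685 in YEJH-M1 to YEJH-M5. All 4 YEJG lines lay below all 11 YEJH lines, and between the lung lines the log2 fold change was -0.26 ± 0.06 (adjusted p = 0.00284). B2m, the light chain shared by class I molecules, had 183 CPM in the YEJG parental line, 175 in YEJG-FP, 274 in YEJG-M1 and 207 in YEJG-M2. For YEJH lines B2m was 207 CPM in the YEJH parental line, 275, 282, 288, 263 and 279.8 in YEJH-FP1 to YEJH-FP5 and 251, 253, 272, 263 and 252 in YEJH-M1 to YEJH-M5. YEJG-M1 was just above the highest YEJH lung line and YEJG-M2 below all of them, and the log2 fold change was -0.10 ± 0.08 (adjusted p = 0.359), 0.09 without YEJG-M2 and -0.31 without YEJG-M1. H2-T23, which encodes the non-classical molecule Qa-1, had a lowest, median and highest line at 2.25, 3.06 and 4.27 CPM and a log2 fold change of 0.20 ± 0.25 (adjusted p = 0.561).

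Levels of the heavy chains also differed between the library runs, whose counts were unlike in another way. Every run A library had at least 822828 reads set aside for low alignment quality, and every run B library had 0. The part of this in the levels was not tested. H2-K1, H2-D1 and H2-T23 were higher in run B than in run A libraries of the same lines, by 0.52 ± 0.03, 0.11 ± 0.03 and 1.07 ± 0.08 on the log2 scale (adjusted p = 5.06e-19, 0.0184 and 2.41e-14). They were the 3 of 42 genes tested to pass between runs, where 15.9% of all 14339 genes passed (5.41% higher and 10.5% lower in run B). Lines differed in their share of run B libraries, and line sums were compared without run as a covariate. For H2-T23 the lowest line, YEJH-M5 (2.25 CPM), had more run A libraries, and the highest, YEJH-FP3 (4.27 CPM), more run B libraries. The part of run share in differences of the heavy chains between lines was not tested. FVB mice carry other alleles of these genes (the q haplotype) than the C57BL/6 reference (b), and heavy chain genes are near-identical in long stretches, so reads could be split among them or set aside as matching several places, and their values are less certain than those of the other genes.

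Peptide supply showed the largest rise. Psmb8, a catalytic subunit of the immunoproteasome, stood at 0.0267 CPM in the YEJG parental line, 1.52 in YEJG-FP, 26.9 in YEJG-M1 and 34.8 in YEJG-M2. In the YEJH lines Psmb8 was 0.0985 CPM in the YEJH parental line, 3.54, 6.03, 6.04, 5.06 and 3.34 in YEJH-FP1 to YEJH-FP5 and 5.19, 2.87, 4.82, 5.33 and 2.82 in YEJH-M1 to YEJH-M5. Both YEJG lung lines were above all 13 other lines, and the mean of the lung lines was 30.9 ± 5.61 CPM (SD, n = 2 lines) for YEJG and 4.21 ± 1.26 CPM (SD, n = 5 lines) for YEJH. The log2 fold change was 2.88 ± 0.27 (adjusted p = 4.57e-06), or 7.35-fold. Psmb9, the second inducible subunit, was lower in level and also highest in the YEJG lung lines, with 0.0267 CPM in the YEJG parental line, 0.171 in YEJG-FP, 2.699 in YEJG-M1 and 4.09 in YEJG-M2. YEJH lines had 0.197 CPM in the YEJH parental line, 0.6399, 0.668, 0.747, 0.387 and 0.361 in YEJH-FP1 to YEJH-FP5 and 0.6003, 0.397, 0.465, 0.632 and 0.265 in YEJH-M1 to YEJH-M5. Its log2 fold change was 2.85 ± 0.31 (adjusted p = 1.39e-05). Psmb10, the third inducible subunit, was 14.99 CPM in the YEJG parental line, 29.6 in YEJG-FP, 50.4 in YEJG-M1 and 51.9 in YEJG-M2. YEJH lines lay between 14.4 and 17.4 CPM when derived and at 13.6 in the parent. All 3 derived YEJG lines were above every YEJH line, and the log2 fold change between lung lines was 1.72 ± 0.06 (adjusted p = 6.78e-09).

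Erap1, which trims peptides in the endoplasmic reticulum, rose with them (0.70 ± 0.07, adjusted p = 1.09e-05). The transporter did not pass. Tap1, one chain of the peptide transporter, had 0.828 CPM in the YEJG parental line, 3.08 in YEJG-FP, 5.99 in YEJG-M1 and 8.45 in YEJG-M2. YEJH lines had 4.24 CPM in the YEJH parental line, 5.73, 6.08, 6.88, 5.66 and 3.68 in YEJH-FP1 to YEJH-FP5 and 7.99, 5.62, 6.31, 5.85 and 5.86 in YEJH-M1 to YEJH-M5 of Tap1. YEJG-M2 was above all YEJH lines and YEJG-M1 within them, and the log2 fold change was 0.19 ± 0.21 (adjusted p = 0.513), -0.08 without YEJG-M2. Tap2, its partner chain, differed by 0.44 ± 0.17 (adjusted p = 0.0529) and Tapbp by 0.16 ± 0.06 (adjusted p = 0.0551). In RefSeq the start windows of Psmb9 and Tap1 share 275 bases on opposite strands, and that of Psmb8 lies on the same stretch of chromosome 17. The library kit does not keep strand and 19.6% of the exon bases of Psmb9 lie under exons of Tap1 in the GENCODE vM39 annotation, so reads there could not be told apart. The same annotation has exons of other genes over 31.4% of the exon bases of Irf1 (Gm17334) and 13.2% (Gm12216), 25.6% and 20.9% of Tapbp (Gm19412 and Zbtb22), 747 of the 3742 exon bases of Ifnar2 (Gm21970), 16.2% of Ifi35 (Vat1), 14.6% of Psmb8 (Gm20496), 11.9% of H2-T23 (A930015D03Rik), 11.2% of Tap2 (Gm15821) and 10.3% of Erap1 (Cast), with smaller overlaps for other genes.

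**Figure D3:**
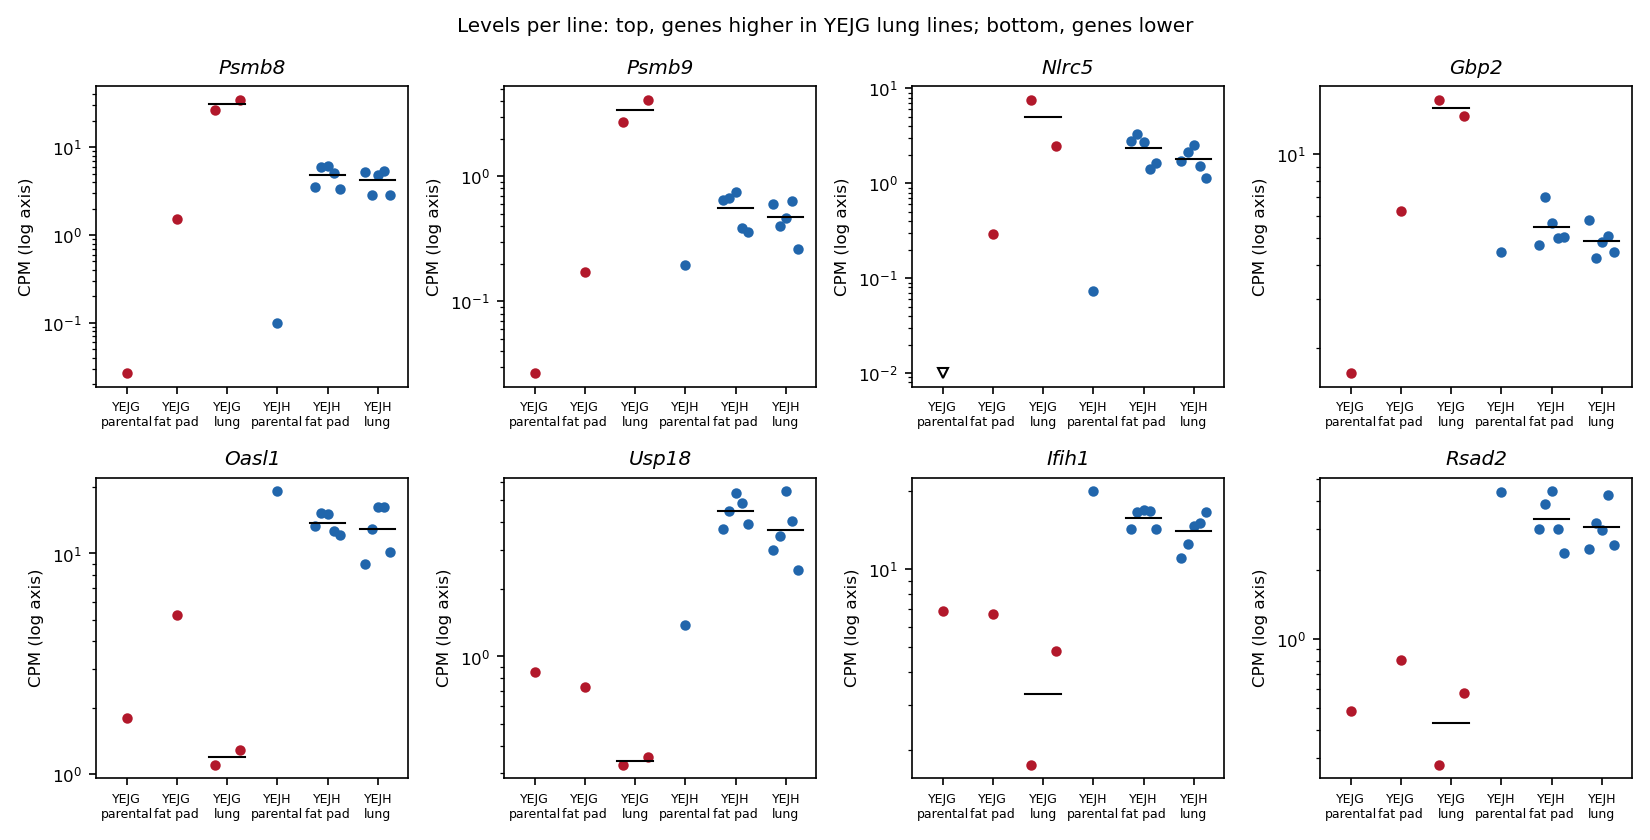
CPM of each line (log axis, red YEJG, blue YEJH, black bar the mean of groups with more than 1 line) for genes higher in YEJG lung lines (top row) and lower (bottom row), with an open triangle for a line with no read. Psmb8, Psmb9 and Gbp2 are highest in the 2 YEJG lung lines, and Oasl1, Usp18 and Rsad2 are lower in every YEJG line than in every YEJH-derived line.

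Among the regulators, Nlrc5 and Irf1 were higher and Stat2 was lower. Nlrc5, the class I transactivator, was measured at 0 CPM in the YEJG parental line, 0.294 in YEJG-FP, 7.61 in YEJG-M1 and 2.47 in YEJG-M2. YEJH lines held 0.0739 CPM in the YEJH parental line, 2.81, 3.29, 2.75, 1.43 and 1.62 in YEJH-FP1 to YEJH-FP5 and 1.72, 2.16, 2.54, 1.54 and 1.15 in YEJH-M1 to YEJH-M5 of Nlrc5. YEJG-M1 exceeded every other line, whereas YEJG-M2 lay within the YEJH range. The log2 fold change of 1.47 ± 0.41 (adjusted p = 0.0113) fell to 0.44 without YEJG-M1 and no longer passed. Irf1, a factor that type II interferon induces, had 29.3 CPM in the YEJG parental line, 50.2 in YEJG-FP, 77.2 in YEJG-M1 and 89.4 in YEJG-M2. YEJH lines had 48.98 CPM in the YEJH parental line, 50.8, 55.7, 54.8, 54.9 and 48.8 in YEJH-FP1 to YEJH-FP5 and 57.2, 49.2, 53.04, 54.4 and 52.7 in YEJH-M1 to YEJH-M5 of Irf1. Both YEJG lung lines were above all other lines (0.64 ± 0.07, adjusted p = 1.47e-05). Irf7, which amplifies type I interferon output, was near the floor with 0.134 CPM in the YEJG parental line, 0.465 in YEJG-FP, 0.634 in YEJG-M1 and 0.667 in YEJG-M2. In YEJH lines Irf7 was 0.837 CPM in the YEJH parental line, 0.566, 0.579, 0.747, 0.677 and 0.654 in YEJH-FP1 to YEJH-FP5 and 0.626, 0.551, 0.563, 0.6999 and 0.8599 in YEJH-M1 to YEJH-M5. The groups overlapped, with a log2 fold change of -0.02 ± 0.22 (adjusted p = 0.946) whose sign changed with the run and the libraries used. Stat2 and Irf9, both subunits of ISGF3, differed by -0.61 ± 0.17 (adjusted p = 0.0128) and -0.42 ± 0.18 (adjusted p = 0.0758). Stat2 no longer passed without either YEJG lung line, without repeat 1 or without repeat 2. Cd274, the checkpoint ligand PD-L1, was low in every line, at 0.427 CPM in the YEJG parental line, 0.294 in YEJG-FP, 0.423 in YEJG-M1 and 0.533 in YEJG-M2. YEJH lines had 0.517 CPM in the YEJH parental line, 0.689, 0.645, 0.8401, 0.629 and 0.474 in YEJH-FP1 to YEJH-FP5 and 0.365, 0.529, 1.003, 0.813 and 0.684 in YEJH-M1 to YEJH-M5 of Cd274, and the log2 fold change of -0.50 ± 0.35 (adjusted p = 0.275) did not pass.

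Antiviral effectors and sensors were mostly lower in the same lines. Of 18 tested, 11 were lower and 2 higher, with a median log2 fold change of -0.63. Oasl1, a member of the oligoadenylate synthetase-like family, stood at 1.79 CPM in the YEJG parental line, 5.26 in YEJG-FP, 1.103 in YEJG-M1 and 1.29 in YEJG-M2. YEJH lines held 19.2 CPM in the YEJH parental line, 13.3, 15.2, 15.1, 12.6 and 12.1 in YEJH-FP1 to YEJH-FP5 and 8.93, 12.9, 16.3, 16.3 and 10.1 in YEJH-M1 to YEJH-M5 of Oasl1. Every YEJG line was below every YEJH line, and the lung lines differed by -3.43 ± 0.28 (adjusted p = 1.19e-06), 10.8-fold lower in YEJG. Usp18, the ISG15 protease that also damps type I receptor signalling, had 0.855 CPM in the YEJG parental line, 0.734 in YEJG-FP, 0.329 in YEJG-M1 and 0.356 in YEJG-M2. In the YEJH series Usp18 was 1.38 CPM in the YEJH parental line, 3.72, 4.47, 5.39, 4.84 and 3.904 in YEJH-FP1 to YEJH-FP5 and 3.002, 3.46, 5.48, 4.02 and 2.45 in YEJH-M1 to YEJH-M5. The lung lines differed by -3.42 ± 0.35 (adjusted p = 7.35e-06), and the YEJH parent was closer to the YEJG lines than to its own derivatives. Rsad2, which encodes viperin, was 0.481 CPM in the YEJG parental line, 0.807 in YEJG-FP, 0.282 in YEJG-M1 and 0.578 in YEJG-M2. YEJH lines had 4.38 CPM in the YEJH parental line, 3.03, 3.89, 4.41, 3.0001 and 2.37 in YEJH-FP1 to YEJH-FP5 and 2.45, 3.196, 2.98, 4.24 and 2.56 in YEJH-M1 to YEJH-M5 of Rsad2. No YEJG line reached 1 CPM and no YEJH line was under 2 CPM, with a log2 fold change between lung lines of -2.83 ± 0.36 (adjusted p = 4.39e-05).

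Isg15, the ubiquitin-like modifier, was 4.41 CPM in the YEJG parental line, 5.33 in YEJG-FP, 1.46 in YEJG-M1 and 2.73 in YEJG-M2. YEJH lines had 13.3 CPM in the YEJH parental line, 8.34, 10.4, 9.78, 9.15 and 8.46 in YEJH-FP1 to YEJH-FP5 and 5.79, 7.16, 7.93, 8.49 and 8.09 in YEJH-M1 to YEJH-M5 of Isg15. Both YEJG lung lines were below all others, with a log2 fold change of -1.84 ± 0.22 (adjusted p = 3.25e-05). Ifit1, which binds foreign RNA caps, was 0.588 CPM in the YEJG parental line, 2.32 in YEJG-FP, 0.775 in YEJG-M1 and 1.64 in YEJG-M2. YEJH lines had 3.79 CPM in the YEJH parental line, 4.09, 5.14, 5.41, 4.74 and 4.4004 in YEJH-FP1 to YEJH-FP5 and 3.26, 2.56, 2.86, 3.54 and 3.48 in YEJH-M1 to YEJH-M5 of Ifit1. The 4 YEJG lines lay under the 11 YEJH lines, and the lung lines differed by -1.37 ± 0.25 (adjusted p = 7.59e-04). Bst2 followed another order, with 5.48 CPM in the YEJG parental line, 2.45 in YEJG-FP, 6.29 in YEJG-M1 and 7.65 in YEJG-M2. In YEJH lines Bst2 was 5.59 CPM in the YEJH parental line, 10.04, 12.04, 11.9, 9.17 and 8.24 in YEJH-FP1 to YEJH-FP5 and 13.4, 7.58, 14.6, 14.7 and 9.04 in YEJH-M1 to YEJH-M5. YEJG-M2 (7.65 CPM) was just above the lowest YEJH lung line (7.58 CPM), and the log2 fold change of -0.77 ± 0.26 (adjusted p = 0.0296) no longer passed without either YEJG lung line or without YEJH-M3 or YEJH-M4. Nor did Bst2 pass within run B alone.

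The RNA sensor Ifih1 (MDA5) had a log2 fold change of -2.08 ± 0.30 (adjusted p = 1.10e-04), from 14.004 ± 2.22 CPM (SD, n = 5 lines) in YEJH lung lines to 1.76 and 4.82 CPM in YEJG-M1 and YEJG-M2. The helicase Ddx60 (-1.90), Oasl2 (-1.11), the ubiquitin ligase Trim25 (-0.49) and Samd9l (-0.43) also passed lower. Oasl2 and Samd9l were not called without YEJG-M2, nor Trim25 without YEJG-M1. Samd9l was also not called within run B alone, without repeat 2, without YEJG-M1 repeat 1 or with the libraries of a line kept apart. Ifit2 (0.45) and Ifi35 (0.24) passed higher, and without YEJG-M1 or YEJG-M2 respectively they did not. Ifi35 also did not pass within run A alone, without repeat 2 or with no filter beyond 1 read. Log2 fold changes of 0.06 for Parp14, -0.24 for Dhx58, -0.33 for Cmpk2, -0.08 for Xaf1 and 0.61 for Ifit3 did not pass. Ifit2 and Ifit1, members of the same gene cluster on chromosome 19, thus passed in opposite directions. Reads could be split within the Ifit, Oasl and GTPase families, whose members are similar in sequence.

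Of 4 interferon-inducible GTPases, 3 were higher in the YEJG lung lines. Gbp2, a guanylate-binding protein that attacks pathogen vacuoles, had 1.63 CPM in the YEJG parental line, 6.26 in YEJG-FP, 15.7 in YEJG-M1 and 13.6 in YEJG-M2. YEJH lines had 4.43 CPM in the YEJH parental line, 4.701, 6.99, 5.65, 4.98 and 5.01 in YEJH-FP1 to YEJH-FP5 and 5.77, 4.21, 4.84, 5.08 and 4.45 in YEJH-M1 to YEJH-M5 of Gbp2. Both YEJG lung lines were above the other 13 lines, with a log2 fold change of 1.59 ± 0.15 (adjusted p = 4.27e-06). Irgm1, an immunity-related GTPase, had 4.09 CPM in the YEJG parental line, 9.54 in YEJG-FP, 12.3 in YEJG-M1 and 20.7 in YEJG-M2. YEJH lines had 9.28 CPM in the YEJH parental line, 9.38, 12.6, 9.64, 9.39 and 9.86 in YEJH-FP1 to YEJH-FP5 and 10.9, 9.87, 11.9, 9.44 and 11.8 in YEJH-M1 to YEJH-M5 of Irgm1. YEJG-M2 was the highest line of all, and the log2 fold change of 0.62 ± 0.17 (adjusted p = 0.0124) dropped to 0.19 without it. Gbp3 was higher (0.77 ± 0.18, adjusted p = 0.00363, not without YEJG-M1 or within run A alone) and Igtp did not pass (-0.53 ± 0.24, adjusted p = 0.0904).

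Receptor chains differed by small amounts. Ifnar1, a chain of the type I receptor, was 51.4 CPM in the YEJG parental line, 54.6 in YEJG-FP, 62.4 in YEJG-M1 and 63.96 in YEJG-M2. YEJH lines had 61.1 CPM in the YEJH parental line, 57.5, 58.4, 55.2, 59.9 and 58.5 in YEJH-FP1 to YEJH-FP5 and 48.99, 50.7, 53.9, 53.2 and 55.8 in YEJH-M1 to YEJH-M5 of Ifnar1. The YEJG lung lines were the highest of the 15, and the log2 fold change over YEJH lung lines was 0.27 ± 0.05 (adjusted p = 0.0013). Ifnar2, its partner, was 11.97 CPM in the YEJG parental line, 15.3 in YEJG-FP, 19.2 in YEJG-M1 and 19.5 in YEJG-M2. YEJH lines had 12.8 CPM in the YEJH parental line, 14.96, 15.8, 13.3, 14.4 and 12.998 in YEJH-FP1 to YEJH-FP5 and 11.9, 14.1, 13.6, 13.5 and 14.2 in YEJH-M1 to YEJH-M5 of Ifnar2, and the lung lines differed by 0.52 ± 0.09 (adjusted p = 3.86e-04). Ifngr1 had 33.4 CPM in the YEJG parental line, 42.2 in YEJG-FP, 45.6 in YEJG-M1 and 41.1 in YEJG-M2. YEJH lines had 36.2 CPM in the YEJH parental line, 36.4, 36.9, 37.2, 37.3 and 38.6 in YEJH-FP1 to YEJH-FP5 and 39.3, 37.6, 35.1, 40.8 and 33.8 in YEJH-M1 to YEJH-M5 of Ifngr1. YEJG-M2 was just above YEJH-M4, and the log2 fold change of 0.22 ± 0.07 (adjusted p = 0.0256) no longer passed without YEJG-M1. Ifngr1 also did not pass within either run alone, without repeat 2 or with no filter beyond 1 read. Ifngr2, the signalling chain of the type II receptor, was 20.9 CPM in the YEJG parental line, 35.4 in YEJG-FP, 33.6 in YEJG-M1 and 35.7 in YEJG-M2. YEJH lines had 32.2 CPM in the YEJH parental line, 29.4, 32.02, 32.9, 32.8 and 31.03 in YEJH-FP1 to YEJH-FP5 and 29.4, 31.01, 33.001, 38.1 and 33.9 in YEJH-M1 to YEJH-M5 of Ifngr2, with overlapping groups (0.07 ± 0.09, adjusted p = 0.57).

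Within the YEJG origin, lung lines were set against the single fat-pad line, to ask which of these differences were also seen between sites. Of 43 genes tested, 16 passed, 14 higher and 2 lower in the lung lines, where 17.1% of all genes passed (8.46% higher, 8.66% lower). The spread came from the groups of more than 1 line, which were 5 YEJH fat-pad, 5 YEJH lung and 2 YEJG lung lines. It was thus mostly that of YEJH lines, and the single fat-pad line was assumed to vary like these groups. All 7 peptide supply genes were higher, led by Psmb8 (4.34 ± 0.56, adjusted p = 3.68e-04) and Psmb9 (4.29 ± 0.65, adjusted p = 9.93e-04), with Tap1 at 1.23 ± 0.34 (adjusted p = 0.0274), Tap2 at 1.16, Psmb10 at 0.79, Erap1 at 0.51 and Tapbp at 0.47. Tap1 no longer passed without YEJG-M2, within run B alone or without repeat 2. Of the genes named next, Gbp3 did not pass within either run alone or without repeat 3. Xaf1 did not pass within run B alone or without repeat 1, nor Bst2 without repeat 2. Nlrc5 rose by 4.09 ± 0.85 (adjusted p = 0.00618) and Irf1 by 0.73 ± 0.11 (adjusted p = 0.001). B2m (0.46 ± 0.12, adjusted p = 0.0224), Gbp2 (1.23 ± 0.24, adjusted p = 0.00492), Gbp3 (1.07) and Xaf1 (0.93) were also higher, B2m and Gbp3 not without YEJG-M1. Bst2 passed higher (1.51 ± 0.41, adjusted p = 0.0245, not without YEJG-M2) from its lowest value of all in YEJG-FP. Oasl1 (-2.13 ± 0.34, adjusted p = 0.0013) and Isg15 (-1.34 ± 0.29, adjusted p = 0.00788) were lower.

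Of the other genes with values for every line, log2 fold changes within YEJG of 0.35 for H2-K1, 0.19 for H2-D1, 0.48 for Irf7, 0.70 for Cd274, -0.94 for Ifit1 and 0.79 for Irgm1 did not pass, nor did 0.21 for Ifnar1, 0.33 for Ifnar2, 0.04 for Ifngr1 and -0.03 for Ifngr2. Epithelial markers summed to 6767 CPM in YEJG-FP, between the YEJG parent (10490 CPM) and the YEJG lung lines, and 5 of 7 tested were lower in the lung lines. Fibroblast markers summed to 4.16 CPM in YEJG-FP, and 2 of 3 tested were higher in the lung lines. Their part in the changes was not tested.

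YEJH lung and fat-pad lines, with 5 lines each, did not separate. In edgeR, 0 of 43 genes passed, 5 had an unadjusted p under 0.05, and 0.0117% of all genes passed (2 genes, both lower). DESeq2 called 1 of the 43. The lowest unadjusted p-values among the 43 were those of Ifit2, Gbp3 and Ifit1, with log2 fold changes for Gbp3 (-0.62 ± 0.14, adjusted p = 0.276), Ifit1 (-0.60 ± 0.17, adjusted p = 0.38) and Ifit2 (-0.34 ± 0.07, adjusted p = 0.222), all lower in lung lines. Gbp3 was 1.895, 2.47, 2.38, 2.18 and 1.51 CPM in YEJH-FP1 to YEJH-FP5 and 1.33, 1.32, 1.35, 1.42 and 1.37 in YEJH-M1 to YEJH-M5, so every lung line was below every fat-pad line, though the test did not pass. Psmb8, Nlrc5 and Oasl1, all called within YEJG, differed here by -0.19 ± 0.23, -0.39 ± 0.33 and -0.08 ± 0.16 (adjusted p = 0.909, 0.883 and 0.95).

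The difference between the 2 origins in their lung over fat-pad change was tested as an interaction. Of 43 genes tested, 14 passed, 13 with a positive and 1, Oasl1, with a negative difference of YEJG minus YEJH change, where 13.2% of all genes passed (6.50% higher, 6.70% lower). The interaction was 4.54 ± 0.59 (adjusted p = 6.64e-04) on the log2 scale for Psmb8, 4.54 ± 0.70 (adjusted p = 0.00167) for Psmb9, 4.47 ± 0.91 (adjusted p = 0.00712) for Nlrc5 and -2.05 ± 0.37 (adjusted p = 0.00414) for Oasl1. Gbp3 followed at 1.69 ± 0.32 (adjusted p = 0.00485), from 0.401 CPM in the YEJG parental line, 1.101 in YEJG-FP, 2.51 in YEJG-M1 and 2.13 in YEJG-M2, with log2 fold changes of 1.07 in YEJG and -0.62 in YEJH. Gbp2 (1.39), Xaf1 (1.08), Psmb10 (0.88), Ifit2 (0.73), Irf1 (0.72), Erap1 (0.57), B2m (0.56), Tapbp (0.47) and Ifnar1 (0.35) completed the 14. This interaction shares the YEJG lung and fat-pad lines with the comparison within YEJG, so the 2 counts are not independent. Isg15 (-1.05 ± 0.33, adjusted p = 0.0547) and Bst2 (1.30 ± 0.45, adjusted p = 0.0754) did not pass.

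**Figure D4:**
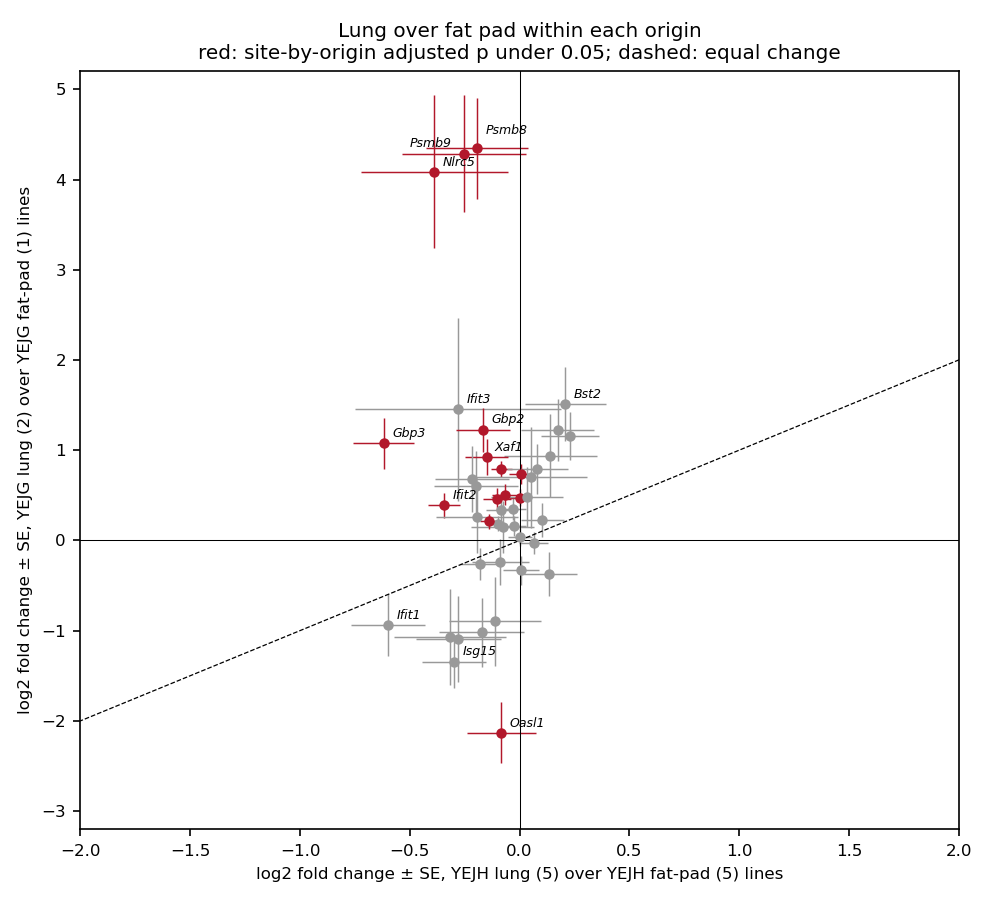
Log2 fold change (± SE) of lung over fat-pad lines in YEJH (horizontal axis, 5 against 5 lines) and in YEJG (vertical axis, 2 against 1) for the 43 tested genes, red where the site-by-origin interaction passed, with a dashed line of equal change. Psmb8, Psmb9 and Nlrc5 stand above 4 in YEJG and under 0 in YEJH, and Oasl1 is the red point at -2.13 in YEJG.

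Over all derived lines, 3 from YEJG and 10 from YEJH, origin was compared with site as a covariate. Here too each origin is a single parental line, and the spread is that among its derived lines. Of 43 genes tested, 24 passed, 8 higher and 16 lower in YEJG-derived lines, where 40.8% of all 15815 genes passed (19.2% higher, 21.6% lower). The median log2 fold change was -0.18 over the 43 genes. Usp18 (-3.08 ± 0.28, adjusted p = 9.80e-06), Rsad2 (-2.52 ± 0.30, adjusted p = 4.54e-05) and Oasl1 (-2.45 ± 0.37, adjusted p = 2.30e-04) were the lowest, and all 11 antiviral genes that were lower between the lung lines were lower here too, with the same lung lines in both comparisons. Psmb8 (2.03 ± 0.61, adjusted p = 0.0171) and Psmb9 (1.96 ± 0.58, adjusted p = 0.0169) were the highest but rested on the lung lines, since Psmb9 no longer passed without YEJG-M2 and Psmb8 without either. Psmb10 (1.42), Gbp2 (1.16), Erap1 (0.50), Irf1 (0.39), Ifnar2 (0.37) and Ifngr1 (0.19) were the others that passed higher. H2-D1 (-0.37), B2m (-0.30), Igtp (-0.83), Irf9 (-0.37) and Stat2 (-0.42) passed lower. The calls of B2m, Irf9 and Stat2 were each lost when any of 8 or more single lines was left out, that of Igtp without YEJG-FP or YEJG-M1, those of Ifngr1 and Trim25 without YEJG-M1 and that of Irf1 without YEJG-M2. That of Igtp was also lost within run B alone and without repeat 2, and that of Samd9l with the libraries of a line kept apart.

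Site over all 13 derived lines gave no call in a fit that did not include origin. Differences between YEJG and YEJH lines, by which 40.8% of genes passed in the comparison of origin, therefore stayed in its spread. The sites also held unequal shares of the 2 origins. For these reasons the lack of calls cannot decide whether site had an effect within an origin. Lung lines were compared with fat-pad lines, and 0 of 42 genes passed in edgeR, with 3 at an unadjusted p under 0.05 and 0% of all 15056 genes passing. DESeq2 also called 0 of the 42. Adding origin as a covariate left the count unchanged, in a fit that gave both origins the same change by site. The median log2 fold change was 0.01 over the 42 genes. Psmb8 differed by 1.47 ± 0.65 (adjusted p = 0.909) and Isg15 by -0.53 ± 0.34 (adjusted p = 0.909), values that pool the 2 YEJG and 5 YEJH lung lines described above.

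Derived lines were next compared with the parental lines, with origin as a covariate. Of 43 genes tested, 6 passed and all 6 were higher in derived lines, where 7.77% of all 16361 genes passed (3.55% higher, 4.23% lower). The median log2 fold change was 0.38 over the 43 genes, with 37 of them above 0, and 0.006 over all genes. Psmb8 had 1 read in the 3 libraries of the YEJG parent and 4 in those of the YEJH parent, against 2775 reads in 3 derived YEJG lines and 1921 in 10 derived YEJH lines. As a share of all reads on genes, Psmb8 was 853-fold (95% exact interval 153 to 33710.4) higher in YEJG derivatives and 46.004-fold (95% exact interval 17.9 to 169) higher in YEJH derivatives, where the interval covers counting error only. Nlrc5 had 0 and 3 reads in the parents. Set against 3 reads, taken as the limit that a count of 0 allows over the line, Nlrc5 was 45.8-fold higher in YEJG derivatives. The exact 95% interval starts lower, at 37.1-fold. In YEJH derivatives Nlrc5 was 28.7-fold (95% exact interval 9.79 to 139) higher. The fitted log2 fold changes were 7.35 ± 1.31 (adjusted p = 0.00573) for Psmb8 and 5.99 ± 1.27 (adjusted p = 0.0132) for Nlrc5, which depend on the prior count at such low levels.

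Psmb9 also had 1 read in the YEJG parent and 8 in the YEJH parent, but did not pass (3.01 ± 1.08, adjusted p = 0.105). As a share of reads on genes it was 94.1-fold (95% exact interval 16.8 to 3728) higher in YEJG derivatives and 2.63-fold (95% exact interval 1.31 to 6.18) higher in YEJH derivatives. Tap2 was 2.75 CPM in the YEJG parental line, 13.5 in YEJG-FP, 22.9 in YEJG-M1 and 37.2 in YEJG-M2. YEJH lines had 8.69 CPM in the YEJH parental line, 16.9, 21.3, 19.1, 19.5 and 17.9 in YEJH-FP1 to YEJH-FP5 and 25.9, 23.96, 17.9, 23.01 and 20.1 in YEJH-M1 to YEJH-M5 of Tap2. Both parents were below all their derivatives (1.91 ± 0.39, adjusted p = 0.0115). Igtp (1.67 ± 0.29, adjusted p = 0.00511), the ADP-ribosyltransferase gene Parp14 (1.19 ± 0.25, adjusted p = 0.0115) and Dhx58 (0.74 ± 0.18, adjusted p = 0.0258), which encodes the RNA sensor LGP2, were the other 3. Dhx58 did not pass within run B alone, without repeat 1, with no filter beyond 1 read or without the origin covariate. Psmb8 and Igtp also did not pass without the origin covariate. Igtp, an immunity-related GTPase, was 0.214 CPM in the YEJG parental line, 0.587 in YEJG-FP, 0.681 in YEJG-M1 and 1.2002 in YEJG-M2. YEJH lines had 0.517 CPM in the YEJH parental line, 1.501, 1.82, 1.82, 1.35 and 1.42 in YEJH-FP1 to YEJH-FP5 and 1.51, 1.06, 1.42, 1.47 and 1.37 in YEJH-M1 to YEJH-M5 of Igtp. Each parent was below all of its derivatives. Parp14 was 2.86 CPM in the YEJG parental line, 11.5 in YEJG-FP, 11.7 in YEJG-M1 and 15.1 in YEJG-M2. YEJH lines had 8.03 CPM in the YEJH parental line, 10.6, 13.7, 13.6, 11.6 and 10.6 in YEJH-FP1 to YEJH-FP5 and 11.6, 12.8, 13.8, 13.4 and 12.99 in YEJH-M1 to YEJH-M5 of Parp14, and again each parent was below all of its derivatives.

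These counts turn on 1 parental line. Without the YEJG parent 0 of the genes passed in edgeR and 8 had an unadjusted p under 0.05, without the YEJH parent 22 passed, all higher, and without YEJG-FP 12 passed. DESeq2 on all lines called 14, all higher. The YEJG parent was lower than all 3 of its derivatives for most of the set, as for Tap1, Gbp2, Irgm1 and Irf1 above. Among the antiviral genes the YEJH parent was mixed. It was the highest of the 15 lines for Isg15 (13.3 CPM), Ifih1 (19.995), Oasl1 (19.2), Cmpk2 (1.38) and Samd9l (19.1), and below all of its derivatives for Usp18 (1.38), Bst2 (5.59), Parp14 (8.03), Dhx58 (1.23), Ifi35 (16.8) and Xaf1 (2.54). Log2 fold changes of -0.59 for Isg15, -0.52 for Ifih1, -0.22 for Rsad2 and -0.16 for Oasl1 did not pass. For the remaining genes with values for every line, 0.23 for H2-K1, 0.12 for H2-D1, 0.32 for B2m, 1.23 for Tap1, 0.19 for Cd274, 0.37 for Irf7 and 0.58 for Irf1 did not pass, nor did 0.52 for Ifit1, 0.50 for Bst2, 1.07 for Gbp2, 0.77 for Irgm1, 0.02 for Ifnar1, 0.32 for Ifnar2, 0.18 for Ifngr1 and 0.31 for Ifngr2.

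The 10 YEJH-derived lines differed among themselves beyond their technical repeats. In an F test over lines on the 30 libraries, with run as a covariate, 15 of 42 genes passed, where 23.9% of all 13876 genes passed. These repeats are technical, so the test speaks of these cultures only, and the count was 5 without the libraries of repeat 2 and 7 without those of repeat 3. Bst2 (adjusted p = 2.26e-06) ranged from 7.58 to 14.7 CPM, Nlrc5 (3.47e-05) from 1.15 to 3.29, Tap2 (3.60e-05) from 16.9 to 25.9, Psmb8 (9.06e-05) from 2.82 to 6.04 and Usp18 (9.73e-05) from 2.45 to 5.48. Tap1, H2-T23, Irf9, Ifih1, Oasl1, Oasl2, Ddx60, Gbp3, Irgm1 and Ifnar1 also passed. The classical heavy chains and B2m did not, and over these 10 lines H2-K1 stayed within 191 to 233 CPM.

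Antiviral and peptide supply genes were also set against each other over lines. Over the 15 lines Pearson's r on the log2(CPM + 0.5) scale was 0.87 for Psmb8 with Nlrc5 and 0.92 for Oasl1 with Ifih1, -0.32 for Psmb8 with Oasl1 and -0.083 for Psmb8 with Usp18. Over the 10 YEJH-derived lines the same pairs gave 0.38, 0.47, 0.42 and 0.64. These lines share 2 parents, site groups and libraries, so the values are a description only.

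The rest of the lowest, median and highest lines, in CPM over the 15 lines, were as follows. Among peptide supply genes and regulators they were 83.2, 136 and 154 for Tapbp, 32.3, 57.7 and 90.5 for Erap1, 3.498, 5.34 and 6.72 for Irf9 and 1.78, 2.44 and 3.26 for Stat2. Erap1 was highest in YEJG-M2 and Stat2 lowest there. Among antiviral genes they were 12.4, 17.6 and 24.6 for Ifit2, 0.0267, 0.154 and 0.258 for Ifit3, 1.76, 14.3 and 19.995 for Ifih1, 0.2404, 2.26 and 3.76 for Oasl2 and 0.469, 3.86 and 4.74 for Ddx60. The last 3 of these were at their highest in YEJH lines. Further antiviral genes gave 0.962, 1.87 and 2.51 for Dhx58, 0.0801, 1.01 and 1.38 for Cmpk2, 16.7, 19.3 and 23.03 for Ifi35, 0, 0.0445 and 0.176 for Ifi44, 1.095, 3.16 and 3.85 for Xaf1, 49.9, 70.6 and 91.7 for Trim25 and 8.52, 14.1 and 19.1 for Samd9l. Ifi44 had no read in 5 of the 15 lines, from both origins. Gbp3 gave 0.401, 1.51 and 2.51.

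Genes of the same pathways outside the 44 were read for the YEJG against YEJH lung comparison, in which 42.8% of all genes passed, and the counts are read against that share. Of 14 other class I heavy chain genes, 10 were tested and 4 were higher, with Cd1d1 (1.33 ± 0.41, adjusted p = 0.0191), which presents lipids, H2-M3 (0.78 ± 0.16, adjusted p = 0.00183) and Mr1 (0.67 ± 0.22, adjusted p = 0.0256), which presents vitamin metabolites, changed most. Of 8 other genes of the loading machinery, 4 were higher, led by the chaperones Hspa5 (0.65 ± 0.11, adjusted p = 5.22e-04) and Calr (0.60 ± 0.12, adjusted p = 0.00127). Of 7 class II genes, 2 were tested and 1, the invariant chain Cd74, was lower (-2.28 ± 0.74, adjusted p = 0.025). Of 20 sensing and receptor signalling genes, all tested, 4 were higher and 8 lower, with Irf5 up (2.92 ± 0.27, adjusted p = 3.23e-06) and the type III receptor chain Ifnlr1 (-2.33 ± 0.33, adjusted p = 1.10e-04) and the RNA sensor Tlr3 (-1.55 ± 0.19, adjusted p = 3.23e-05) down. Of 56 other interferon-stimulated genes, 41 were tested, 12 higher and 7 lower, with a median log2 fold change of 0.12, and those most changed were Ifi203 (3.06 ± 0.59, adjusted p = 0.00108), Sp100 (2.60 ± 0.35, adjusted p = 7.51e-05) and Phf11d (2.16 ± 0.43, adjusted p = 0.00149), all higher.

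Within YEJG, lung over fat pad, where 17.1% of all genes passed, the same lists gave 14 higher and 1 lower of 41 other interferon-stimulated genes, 5 higher and 4 lower of 20 sensing genes, 2 higher of 10 heavy chain genes and 2 higher of 8 loading genes. Sp100 (6.27 ± 0.94, adjusted p = 9.48e-04), Ifi203 (5.15 ± 1.28, adjusted p = 0.016) and Phf11d (4.10 ± 0.96, adjusted p = 0.0117) again had the largest changes of the first list, and Irf8 (2.54 ± 0.50, adjusted p = 0.00466), a factor better known in leukocytes, of the second. Between YEJH lung and fat-pad lines 0 genes of any of these lists passed in edgeR.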

How the data were processed

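Polyadenylated RNA of 15 PyMT+ lines, 3 technical repeats each, was sequenced with an unstranded kit. The authors deposited raw read counts per gene for each of the 45 libraries, and their processing notes name FastQC, HISAT2, SAMtools 1.2 and HTSeq. These notes list a human build (GRCh38) although the gene identifiers are mouse, so the mouse build is not given in the sources used here. The 5 rows of unassigned reads (31.6 to 43.3% of each library) were left out. The row for low alignment quality was 0 in every run B library and in no run A library. No column was left over (0). Of 54838 identifiers, 50764 (92.6%) matched GENCODE vM39, which gave symbols and exon lengths.

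Counts of the repeats of a line were summed and tested with edgeR 4.0.16 in R 4.3.3 (filterByExpr, TMM, quasi-likelihood test, Benjamini-Hochberg adjustment over all genes kept, threshold 0.05). Comparisons among lung and fat-pad groups of each origin came from 1 model with 6 groups, over all 15 lines. SE is the absolute log2 fold change divided by the square root of F. CPM values use TMM-scaled totals and are otherwise without a pseudocount, while the parental ratios use plain totals. The 95% intervals of these ratios are exact and cover counting error only. Alternatives were DESeq2 1.42.0, its size factors in edgeR, other filters, libraries kept apart (limma 3.58.1 for the correlation within lines), a replicate block, each run alone, and each line or repeat left out. The fits were tested on simulated data.

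The 44 genes, the gene lists and the tests were chosen with earlier results of these data known. Values for every line were given for 18 genes set by name and, in each comparison, for up to 5 called genes with the largest absolute log2 fold change, and at most 3 called genes were named per other list. Genes named for their overlaps, flags or lost calls fall outside this rule and were chosen after their values were seen. The study gives 6 independent lines from 6 mice, without saying which line came from which mouse, and the libraries of a line are technical repeats. With 6 fat-pad and 7 lung lines here, some lines may share a mouse, and the 2 YEJG lung lines may be among them. Where lines came from the same mouse, the unpaired tests treat them as separate. Whether equal line numbers pair fat-pad and lung lines was checked: deviations of same-numbered lines correlated at -0.064 on average (-0.212 to 0.0516), so the numbers were not used as pairs.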

Additional observations from a re-analysis of the deposited data

Results flagged for a closer look

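In 14 genes the change from fat-pad to lung lines differed between YEJG and YEJH, by edgeR's test of the interaction with Benjamini-Hochberg adjustment over all genes. On the log2 scale the difference of the changes was 4.54 for Psmb8, 4.54 for Psmb9, 4.47 for Nlrc5, 1.69 for Gbp3, 1.39 for Gbp2, 1.08 for Xaf1, 0.875 for Psmb10, 0.732 for Ifit2, 0.724 for Irf1, 0.574 for Erap1, 0.563 for B2m, 0.472 for Tapbp, 0.350 for Ifnar1 and -2.05 for Oasl1. All rest on 1 YEJG fat-pad line. Erap1, Gbp2, Ifit2 and Ifnar1 did not pass within run A alone, nor Xaf1 within run B alone or without repeat 1, nor Tapbp without repeat 2, nor Ifnar1 with no filter beyond 1 read.

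Among YEJH fat-pad lines, YEJH-FP1 stood apart with the lowest Samd9l value (14.1 CPM, the nearest line 16.6), and YEJH-FP2 with the highest Irgm1 value (12.6 CPM, the nearest line 9.86). Of 86 groups of lines examined for a value far from the rest, 2 had one, and about 4.3 would by chance at 1 in 20.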

How the results depend on the processing

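Across the alternatives run, 182 counts of genes passing stayed within 1.5 times the reported count and 12 did not. The 6 genes higher in derived than parental lines became 14 with DESeq2, 22 with libraries kept apart, 23 with the replicate block, 3 without the origin covariate, and 0 to 22 when 1 line was left out. Between YEJH lung and fat-pad lines, 0 became 1 with DESeq2, 2 with libraries kept apart and 3 with the replicate block. Since equal repeat numbers did not deviate together (correlations down to -0.903, mean 0.0227), the block is given only here. The 15 genes that differed among YEJH-derived lines became 5 to 12 with 1 repeat left out. Of single-gene values, 553 kept their direction and side of the threshold, 21 lost the call, 1 gained it and 9 changed sign. All sign changes were between YEJG lung and YEJH lung lines, in genes that did not pass. H2-K1 lay at -0.288 to 0.0955 with 1 repeat left out (0.0440 without repeat 3), B2m at -0.313 to 0.0891 and Tap1 at -0.0777 to 0.422 with 1 line left out. Irf7 lay at 0.0149 with libraries kept apart, 0.0431 with the replicate block, 0.333 in run A, -0.105 to 0.164 with 1 repeat left out and -0.0861 to 0.0995 with 1 line left out. The cause was not tested. Genes under about 1 CPM rest on few reads per line, and groups of 1 line have no spread of their own.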
